A study of Mus musculus with 9 samples.

Results

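The genes described here are 10 members of the TNF superfamily measured in mouse macrophages, 7 ligands (Tnf, Tnfsf4, Tnfsf8, Tnfsf9, Tnfsf10, Tnfsf13b and Tnfsf14) and 3 receptors (Tnfrsf1a, Tnfrsf1b and Cd40), out of 18193 genes on the arrays. They were taken as a list of names, which was drawn up with earlier results of these data known. For each gene the probe set with the highest mean over all 9 arrays was used, among probe sets annotated to that gene alone, and the remaining probe sets served as a check. The 10 members had 18 such probe sets of 45037 in the table.

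Bone marrow cells of C57BL6 mice aged 6 to 12 weeks were grown into macrophages with conditioned medium of L929 cells, which was withdrawn the day before use, and were used on day 6 in vitro. All 3 groups received ultrapure lipopolysaccharide (LPS, a bacterial cell wall component) at 33 ng/mL for 3 h. Sterile saline (group LPS, called saline below), TMT OH at 1.25 µM (group LPS+TMT) or TET Br at 10 µM (group LPS+TET) was then added for 6 h, with 3 biological replicates per group. TMT and TET, trimethyltin and triethyltin, are organotins with methyl or ethyl groups on tin, used to induce activation of the NLRP3 inflammasome, and their doses differed. Every group therefore carried the LPS stimulus, and cells without LPS are not described here. RNA from 9 samples was read on Affymetrix mouse genome arrays. Whether different mice gave the replicates of a group is not stated, so the p-values speak for the spread among these samples, which may be technical.

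Ligands of the TNF superfamily are mostly trimeric membrane proteins of immune cells, some of them released by proteases, and they signal through receptors that recruit TRAF adaptors or death domain proteins. Activated macrophages are a major source of TNF, whose transcription rises through NF-κB after LPS and whose mRNA is short-lived because decay proteins bind its AU-rich elements. Other ligands of the family act on T cells and B cells as costimulators or survival factors.

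Signals are in log2 units, so a difference of 1 is a 2-fold change, and levels are given as mean ± SD with n = 3. A member was called when its adjusted p in the limma fit over all genes was under 0.05. With 3 arrays per group the precision is limited, and for a single gene 0.1 is the smallest p that exact permutation of the arrays allows. Within groups the arrays correlated across genes at 0.997 to 0.998 in saline, 0.994 to 0.998 under TMT and 0.99 to 0.992 under TET. The interquartile range of the signal was 3.86 for saline, 3.83 for TMT and 3.51 for TET. The dimmest 20% of genes in saline (mean signal 2.22 to 4.71) were taken as not shown to lie above background, and the probe sets used for the 10 members lay above it in all groups.

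The macrophage identity of the cells was checked with 8 markers, whose summed linear signal was 78450 to 81410 in the saline arrays, 71650 to 84870 under TMT and 64050 to 71230 under TET. None of the 8 lay in the dimmest 20%. The 7 measured T cell markers summed to 563 to 616 in saline, 324 to 348 under TMT and 701 to 791 under TET. Cd3e lay in the dimmest 20% in every group, and Cd28 fell under TMT from 7.98 to 5.23. The 4 B cell markers summed to 168 to 202, 154 to 170.5 and 214 to 236 in the same order, with none in the dimmest 20%, and the 7 neutrophil markers to 3230 to 3837, 2387 to 3361 and 1879 to 2073, with Cxcr2 in it. The 5 dendritic cell markers summed to 246 to 277, 278 to 313 and 259 to 322, with none in the dimmest 20%. All 3 NK cell markers (52.8 to 55.4, 55.2 to 57.8 and 61.3 to 72.9) and 4 of 5 mast cell and basophil markers (107 to 108, 98.9 to 119 and 113 to 143) lay there. The 5 stromal markers summed to 1198 to 1316 in saline, 1411 to 1871 under TMT and 812 to 992 under TET, with none in the dimmest 20%. Single bright genes set several of these sums. Pdgfrb fell under TET (−1.59), while Col1a1, Col1a2 and Dcn rose (0.62, 0.91 and 0.63), so 3 of 5 stromal markers were higher and 1 lower, with a median difference of 0.62. S100a9 fell under both (−1.70 under TMT, −1.66 under TET), while the median over the neutrophil markers was −4e-04 under TMT and −0.28 under TET, and S100a8 was at 0.45 under TMT without a call. The part of these shifts in the results below was not tested, and in bulk RNA fewer cells of a type and less RNA per cell cannot be told apart.

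Under TMT, 5 of the 10 members fell and 0 rose, all 5 of them ligands. Among all genes 27.8% were called, 13.4% lower and 14.3% higher. The TMT and saline arrays did not overlap for 6 of the 10 members, against 44.7% of all genes. Under TET, 5 members fell (4 ligands and Tnfrsf1b) and 2 ligands rose, against 50.8% of all genes called, 23.4% lower and 27.4% higher. The TET and saline arrays did not overlap for 8 members, against 58.7% of all genes. The median difference over the members was −0.30 under TMT and −0.34 under TET, where the medians over all genes were 0.01 and 0.09. Without saline replicate 1, saline replicate 2 or TMT replicate 1 the TMT count was 3 (Tnf, Tnfsf4 and Tnfsf9). Those fits called 3971, 4100 and 4061 of the 18193 genes. Brighter genes were called more often than all genes. Of 9097 genes with at least the median mean signal, 4628 were called under TMT (2203 lower), with 5 of the 9 members among them. Under TET 6066 of these genes were called (3862 lower), with 6 of the 9 members, 4 of them lower. With the mean over probe sets 6 members fell and 0 rose under TMT, with Tnfsf10 and Cd40 gained and Tnfsf14 lost. In that fit 6 fell and 1 rose under TET, with Tnfsf10 gained (−1.58) and Tnfsf13b lost (0.22, adjusted p = 0.077). It called 5429 of the 18193 genes under TMT and 10015 under TET. Both comparisons use the same saline arrays, so each member's values are given side by side.

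**Figure D1:**
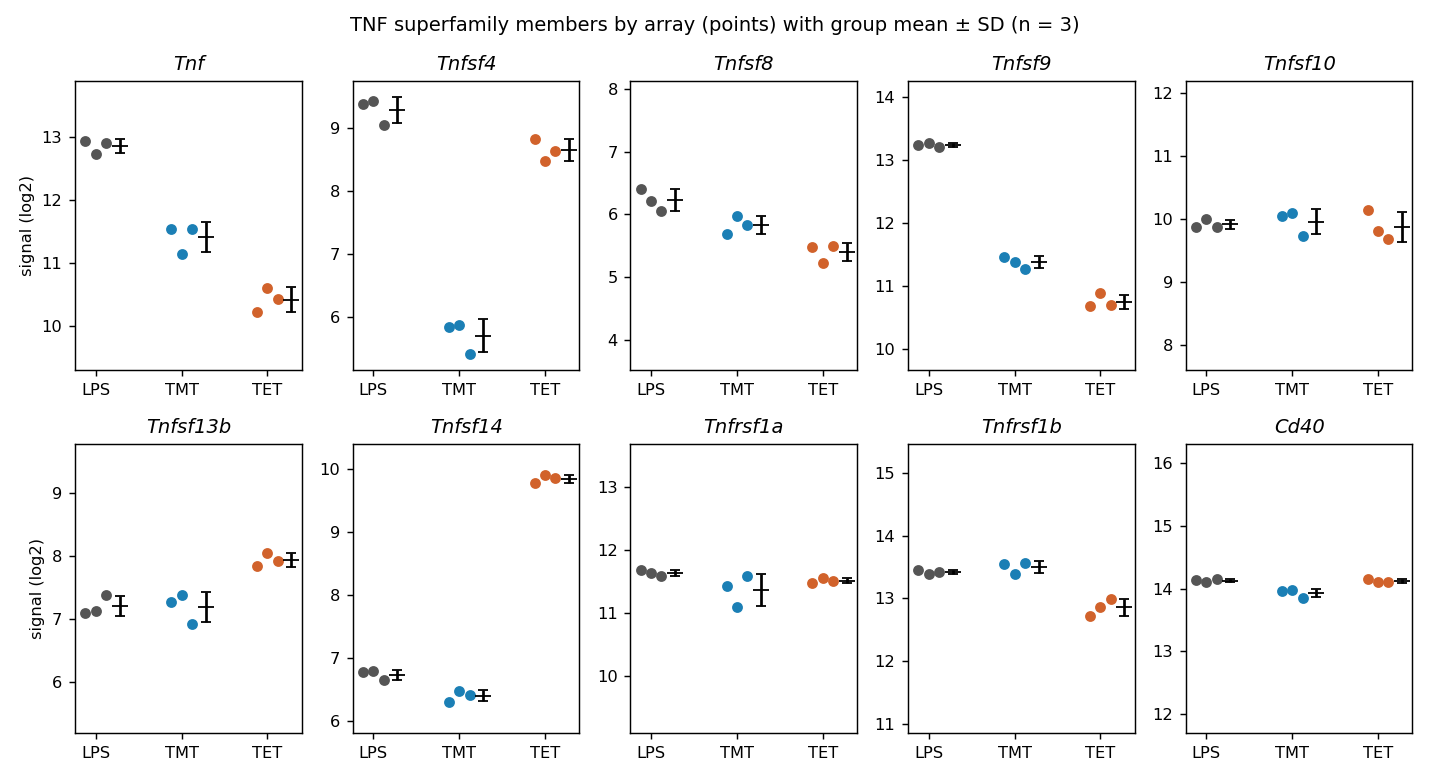
Log2 signal of each of the 10 members (vertical axes, each spanning the same number of log2 units) in the 3 saline arrays (LPS, grey), the 3 TMT arrays (blue) and the 3 TET arrays (orange), with the mean ± SD of each group beside its points. Tnf and Tnfsf9 stepped down from saline to TMT to TET, Tnfsf4 was low in the TMT arrays (5.40 to 5.87) and Tnfsf14 was high in the TET arrays (9.78 to 9.91).

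Tnf encodes tumour necrosis factor, the founding cytokine of the family. Its signal was 12.93, 12.73 and 12.91 in the saline arrays, 11.54, 11.14 and 11.54 in the TMT arrays, and 10.21, 10.61 and 10.42 in the TET arrays. The 3 groups did not overlap, with saline high, TMT between and TET low. TMT left 36.7% of the saline signal (log2 difference −1.45, SE 0.14, adjusted p = 2.8e-05) and TET 18.4% (−2.44, SE 0.14, adjusted p = 4.3e-07). TET arrays were lower than TMT arrays by a further 2.00-fold (−0.998, SE 0.14, adjusted p = 1.9e-04), at the different doses. Under TET, Tnf had rank 48 from the lowest among the 18193 differences, and under TMT rank 351.

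Tnfsf9 encodes the ligand of the T cell costimulatory receptor gene Tnfrsf9. It read 13.24, 13.28 and 13.20 in saline, 11.46, 11.38 and 11.27 under TMT and 10.67, 10.88 and 10.70 under TET. As for Tnf, no group overlapped another and the order was saline, TMT, TET. The fall was 3.65-fold under TMT (−1.87, SE 0.09, adjusted p = 4.2e-07) and 5.62-fold under TET (−2.49, SE 0.09, adjusted p = 2.6e-08), and the TET arrays lay 1.54-fold below the TMT arrays (adjusted p = 2.9e-04). Tnfsf9 ranked 174 from the lowest under TMT and 42 under TET.

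Tnfsf4 encodes OX40 ligand, another costimulator of T cells. Its signal was 9.39, 9.43 and 9.06 in saline, 5.83, 5.87 and 5.40 under TMT, and 8.83, 8.49 and 8.64 under TET. Here the order differed from that of Tnf and Tnfsf9, with the TMT arrays far below both other groups and the TET arrays just below saline. The fall was 12-fold under TMT (−3.59, SE 0.16, adjusted p = 2.2e-07), rank 10 from the lowest of all genes, and 1.56-fold under TET (−0.64, SE 0.16, adjusted p = 0.0063). Between the organotin groups the signal was 7.71-fold higher under TET (2.95, SE 0.16, adjusted p = 2.6e-07).

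Tnfsf14 encodes LIGHT, which binds the receptors of Tnfrsf14 and Ltbr. It read 6.77, 6.79 and 6.64 in saline, 6.30, 6.47 and 6.41 under TMT and 9.78, 9.91 and 9.85 under TET. The TET arrays stood far above the rest, and the TMT arrays lay just below saline without overlap. The rise under TET was 8.67-fold (3.12, SE 0.09, adjusted p = 6.6e-09), and 0.709% of all genes differed by more in either direction. The fall under TMT was 1.26-fold (−0.34, SE 0.09, adjusted p = 0.016), and it did not pass without saline replicate 1 (−0.32, adjusted p = 0.064), saline replicate 2 (−0.31, adjusted p = 0.067) or TMT replicate 1 (−0.29, adjusted p = 0.076). The second probe set of the gene read 6.43 ± 0.17 in saline, 6.35 ± 0.17 under TMT and 7.61 ± 0.44 under TET. It rose 2.26-fold under TET (adjusted p = 8.5e-04) and showed no call under TMT (−0.08, SE 0.20, adjusted p = 0.86). With the mean over probe sets the TMT difference of Tnfsf14 did not pass either (−0.21, adjusted p = 0.27).

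The promoters of Tnf and Tnfsf14 are printed because these ligands moved in opposite directions under TET. The RefSeq promoter sequences at hand (GRCm38.p6) covered 7 of the 10 members, and those of Tnfsf4, Tnfsf9 and Cd40 were not among them. Each line is the 250 bases before the transcript start, 5′ to 3′ on the gene's strand, Tnf from chr17:35202008-35202257 (minus strand) and Tnfsf14 from chr17:57194182-57194431 (minus strand). Capitals mark matches to the motifs searched.
Tnf: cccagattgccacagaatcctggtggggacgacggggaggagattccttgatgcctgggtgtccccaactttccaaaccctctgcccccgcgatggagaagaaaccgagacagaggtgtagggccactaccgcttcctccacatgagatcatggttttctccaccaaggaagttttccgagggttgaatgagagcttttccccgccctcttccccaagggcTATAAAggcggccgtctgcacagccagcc
Tnfsf14: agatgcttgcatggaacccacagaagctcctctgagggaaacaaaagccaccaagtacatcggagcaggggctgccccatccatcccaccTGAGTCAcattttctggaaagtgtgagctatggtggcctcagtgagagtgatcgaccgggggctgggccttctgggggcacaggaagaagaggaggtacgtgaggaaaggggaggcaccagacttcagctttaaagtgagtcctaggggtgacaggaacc
In the Tnf window the capitals are a TATA box (TATAAA), 29 to 24 bases before the start, and in the Tnfsf14 window an AP-1 motif, 160 to 154 bases before it. Of 32851 promoter windows of this length, 12.4% held TATAAA and 6.75% the AP-1 letters TGANTCA, on either strand. The κB motif, the heat shock element core GAANNTTC and the ATF4 element letters TGATGNAA had no match in either window, against 7.25%, 6.69% and 3.45% of all windows. A match is a match of letters and not a bound site, and a window without one shows only that these letters are absent there.

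Tnfsf9, Cd70 and Tnfsf14 are consecutive protein-coding genes on chromosome 17 in the RefSeq annotation, and all 3 encode ligands of this family. Cd70 encodes the ligand of CD27. Under TMT their differences were −1.87 (Tnfsf9), −1.50 (Cd70, SE 0.19, adjusted p = 2.2e-04) and −0.34 (Tnfsf14). Under TET they were −2.49, −0.70 (Cd70, adjusted p = 0.013) and 3.12. Neighbours in this cluster thus differed in opposite directions under TET. On the same chromosome Tnf lies between Ltb and Lta, the genes of the lymphotoxins. Neither was called under TMT (0.14 and 0.41, adjusted p = 0.47 and 0.056). Under TET Ltb rose by 0.83 (adjusted p = 2.8e-04), from 4.94 ± 0.18 to 5.77 ± 0.034 and thus from just above the dimmest 20%, and Lta did not pass (−0.36, adjusted p = 0.057).

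Tnfsf8 encodes CD30 ligand, found on activated lymphocytes and myeloid cells. It read 6.41, 6.21 and 6.06 in saline, 5.69, 5.98 and 5.84 under TMT and 5.48, 5.24 and 5.49 under TET. The groups did not overlap, and the TET arrays were the low ones. The fall under TET was 1.77-fold (−0.82, SE 0.12, adjusted p = 3.3e-04). That under TMT was 1.31-fold (−0.39, SE 0.12, adjusted p = 0.0375), and it did not pass without saline replicate 1 (−0.30, adjusted p = 0.15), saline replicate 2 (−0.40, adjusted p = 0.091), TMT replicate 1 (−0.32, adjusted p = 0.15) or TMT replicate 3 (−0.39, adjusted p = 0.088), nor with the replicate number as a block (adjusted p = 0.068). TET arrays were below TMT arrays by 0.43 (adjusted p = 0.014). That call was lost without TMT replicate 2 (−0.36, adjusted p = 0.0503) and with array weights (−0.35, adjusted p = 0.056).

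Tnfsf13b encodes BAFF, a survival factor of B cells. Its signal was 7.09, 7.13 and 7.38 in saline, 7.27, 7.38 and 6.92 under TMT and 7.84, 8.06 and 7.92 under TET. TET arrays lay above both other groups, which overlapped. The rise under TET was 1.67-fold (0.74, SE 0.14, adjusted p = 0.0013), and the difference under TMT was −0.01 (95% interval −0.31 to 0.29, adjusted p = 0.97). The remaining 2 probe sets of Tnfsf13b lay in the dimmest 20% in every group (group means 2.68 to 3.46), and neither was called against saline. With the mean over all 3 the TET difference was 0.22 (adjusted p = 0.077).

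Tnfsf10 encodes TRAIL, a ligand of death receptors, and its 3 probe sets disagreed. In the one used, the signal was 9.87, 10.00 and 9.87 in saline, 10.04, 10.09 and 9.73 under TMT and 10.14, 9.81 and 9.67 under TET. The groups overlapped, with differences of 0.04 under TMT (95% interval −0.27 to 0.35, adjusted p = 0.89) and −0.04 under TET (−0.35 to 0.27, adjusted p = 0.83). In the second the arrays read 10.64, 10.79 and 10.71 in saline, 10.28, 10.29 and 10.29 under TMT and 8.49, 8.44 and 8.74 under TET. There the groups stepped down without overlap, by 0.42 under TMT (SE 0.10, adjusted p = 0.012) and by 2.16 under TET (SE 0.10, adjusted p = 1.8e-07). The third read 10.51, 10.29 and 10.38, then 9.86, 9.15 and 9.73, then 7.54, 7.80 and 8.19. It fell 1.76-fold under TMT (adjusted p = 0.014) and 5.85-fold under TET (adjusted p = 5.2e-06), so 2 of 3 probe sets were called lower in both comparisons. In saline both of these were brighter than the probe set used, which had the highest mean over the 9 arrays. No transcript-level annotation of the probes was used here, and which of them tracks the TRAIL mRNA was not tested.

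**Figure D2:**
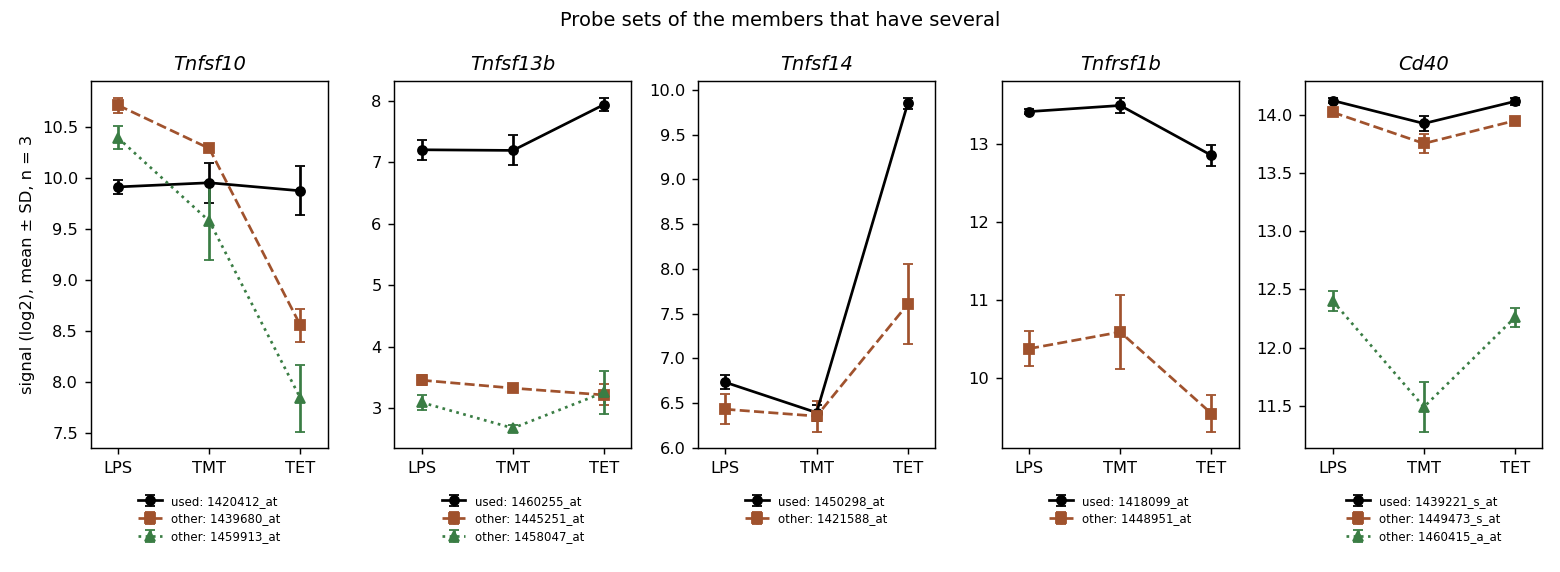
Group means ± SD (n = 3) of the log2 signal in saline (LPS), TMT and TET arrays for the 5 members with several probe sets. The probe set used is drawn in black with a solid line and the others in brown and green with broken lines. The Tnfsf10 probe set used stayed near 9.9 while both others fell under TET, and one Cd40 probe set dipped further under TMT than the 2 bright ones.

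Among the receptors, Tnfrsf1a encodes TNFR1, the broadly expressed death domain receptor of TNF. It read 11.69, 11.63 and 11.60 in saline, 11.43, 11.10 and 11.60 under TMT and 11.49, 11.55 and 11.52 under TET. The TMT arrays were the most spread and overlapped saline, while the TET arrays lay just below it. Neither difference passed, at −0.27 under TMT (95% interval −0.53 to 0.00, adjusted p = 0.14) and −0.12 under TET (−0.39 to 0.15, adjusted p = 0.42). Without TMT replicate 3 the TMT difference passed (−0.38, adjusted p = 0.045), and with array weights it did as well (−0.20, adjusted p = 0.029).

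Tnfrsf1b encodes TNFR2, the receptor of TNF without a death domain. Its signal was 13.45, 13.38 and 13.42 in saline, 13.56, 13.38 and 13.56 under TMT and 12.72, 12.86 and 12.99 under TET. Only the TET arrays stood apart, below both groups. The fall under TET was 1.48-fold (−0.56, SE 0.10, adjusted p = 7.9e-04), and TMT did not pass (0.08, 95% interval −0.14 to 0.29, adjusted p = 0.65). The second probe set fell 1.78-fold under TET (from 10.38 ± 0.23 to 9.54 ± 0.23, adjusted p = 0.012).

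Cd40 encodes the receptor through which T cells license macrophages. In the probe set used it read 14.13, 14.10 and 14.15 in saline, 13.96, 13.97 and 13.85 under TMT and 14.16, 14.10 and 14.10 under TET, brighter than 99.7% of genes or more in each group. The TMT arrays lay below the other 6 without overlap, but the difference did not pass (−0.20, SE 0.08, adjusted p = 0.095). The second bright probe set passed (−0.27, SE 0.08, adjusted p = 0.041). A dimmer one read 12.49, 12.31 and 12.41 in saline, 11.59, 11.24 and 11.63 under TMT and 12.22, 12.35 and 12.21 under TET. It fell 1.88-fold under TMT (−0.91, SE 0.12, adjusted p = 2.9e-04), without a call under TET (−0.14, adjusted p = 0.35). All 3 probe sets were thus lowest under TMT, and the TET difference of the probe set used was −0.01 (95% interval −0.18 to 0.17). The 3 probe sets have names that mark possible binding to related transcripts or several transcripts.

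**Figure D3:**
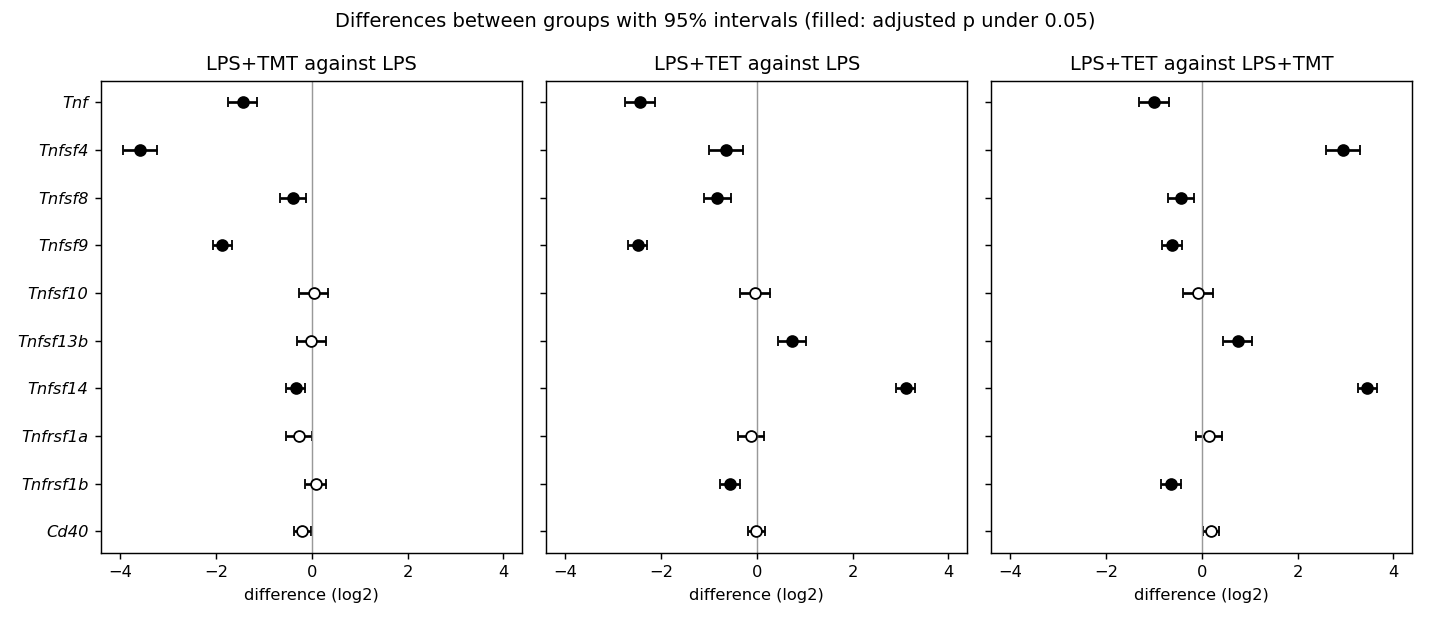
Log2 differences between groups for each member (points) with 95% intervals (bars), filled where the adjusted p was under 0.05 and open where it was not. Tnf, Tnfsf8 and Tnfsf9 lay left of 0 in all 3 panels, Tnfsf4 was at −3.59 under TMT and Tnfsf14 at 3.12 under TET.

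Set directly against each other, the TET and TMT groups differed in 7 of 10 members, 4 lower and 3 higher under TET. Among all genes 51.8% were called in this comparison, 23.7% lower and 28.1% higher. Arrays of the 2 groups did not overlap for 8 members, against 57.0% of all genes. Of the 9097 genes with at least the median mean signal, 6270 were called (3904 lower and 2366 higher), with 7 of the 9 members among them. Lower under TET were Tnf, Tnfsf8, Tnfsf9 and Tnfrsf1b (−0.64, SE 0.10, adjusted p = 3.2e-04). Higher were Tnfsf4, Tnfsf13b (0.75, SE 0.14, adjusted p = 0.0011) and Tnfsf14 (3.45, SE 0.09, adjusted p = 7.4e-09). The probe sets of Tnfsf10 disagreed here too. The other Tnfsf10 probe sets were lower under TET (−1.73 and −1.73, adjusted p = 7.4e-07 and 6.9e-05). All 3 Cd40 probe sets were higher under TET, at 0.19 (the one used), 0.20 and 0.77. Only the last of these was called (adjusted p = 4.2e-04). With the mean over probe sets 9 members were called, Tnfsf10 (−1.18, adjusted p = 1.3e-06) and Cd40 (0.39, adjusted p = 8.75e-04) being the additions. That fit called 10154 of 18193 genes. Since TET was given at 10 µM and TMT at 1.25 µM, the values compare the groups as treated and not methyl with ethyl at a matched dose.

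For each member called against saline, the genes of most similar profile were sought among 9088 genes of at least median mean signal, by the root mean square difference between profiles over the 9 arrays, each centred on its own mean. The nearest to Tnf were Oaf (0.163) and Irf1 (0.184), against a root mean square of 1.01 for the Tnf profile itself. Nearest to Tnfsf9 were Gpr132 (0.134) and Ankrd44 (0.172), and to Tnfsf4 Akap2 (0.248) and Nr4a3 (0.288). Akap2 and Nr4a3 shared the deep fall under TMT (−3.46 and −3.66) and the smaller one under TET (−0.45 and −1.15). Tnfsf14 lay nearest to Rgcc (0.188) and Arc (0.219), which differed under TET by 3.06 and 3.44. For Tnfsf8 these were Chchd4 and Gpn1, for Tnfsf13b Fbxo36 and Orc6, and for Tnfrsf1b Ltn1 and Zmiz1. These are descriptions over 3 groups of arrays, whose means set most of each profile.

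Of the other ligands of the family, 7 were measured. Of these 7 measured, 1 fell (Cd70) and 0 rose under TMT, and 1 fell (Cd70) and 2 rose (Ltb and Eda, the latter by 0.43, encoding ectodysplasin) under TET. Their median difference was 0.09 under TMT and 0.10 under TET. The TMT count of 1 was 2 without TET replicate 1 or TET replicate 3. None of these 7 ligand genes reached the median mean signal. Of the other receptors, 24 were measured, of which 5 rose and 3 fell under TMT (median 0.07) and 10 rose and 5 fell under TET (median 0.27). The TMT count of 8 was 5 without saline replicate 2 or without TMT replicate 1. With bright genes alone 9 of these receptors were tested, of which 3 rose and 1 fell under TMT and 3 rose and 4 fell under TET. Tnfrsf22 and Tnfrsf23, encoding decoy receptors of TRAIL, rose 4.05-fold and 3.97-fold under TET (2.02 and 1.99, adjusted p = 4e-07 and 3.4e-06). Under TMT Tnfrsf22 rose by 0.49 (adjusted p = 0.0082) and Tnfrsf23 did not pass (0.39, adjusted p = 0.095). Relt, encoding an orphan receptor of the family, rose by 0.67 under TMT (adjusted p = 5.9e-04) and by 0.49 under TET (adjusted p = 0.00275).

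Receptors of the changed ligands were looked up by their known pairing after their values were seen. Tnfrsf14, encoding the LIGHT receptor HVEM, rose under TMT from 8.33 to 9.37 (1.04, SE 0.13, adjusted p = 2.1e-04) and fell under TET to 7.63 (−0.70, adjusted p = 0.0016). Ltbr, the lymphotoxin beta receptor and also a LIGHT receptor, rose by 0.63 under TMT (adjusted p = 0.0017) and did not pass under TET (0.24, adjusted p = 0.10). Under TET, Tnfrsf14 thus fell where its ligand gene Tnfsf14 rose. Under TMT the fall of Tnfsf14 was lost when any 1 of 3 arrays was left out, in its second probe set and in the mean over probe sets, as given above. Tnfrsf13b, encoding the BAFF receptor TACI, fell 2.75-fold under TET (−1.46, SE 0.08, adjusted p = 3.7e-07). The other BAFF-family receptor genes rose under TET, Tnfrsf13c (BAFF receptor) by 0.57 (adjusted p = 0.0059) and Tnfrsf17 (BCMA) by 0.66 (adjusted p = 0.0012). Both were dim, Tnfrsf13c at 5.11 in saline and 5.69 under TET and Tnfrsf17 at 5.39 and 6.05. The median over genes of the mean signal was 6.82. None of the 3 BAFF-family receptor genes was called under TMT (0.20, 0.16 and 0.03 for Tnfrsf13b, Tnfrsf13c and Tnfrsf17). Of the receptors whose ligand genes fell, Tnfrsf4 did not pass (0.01 and −0.13, adjusted p = 0.97 and 0.23), nor did Tnfrsf9 (0.07 and −0.29, adjusted p = 0.82 and 0.15). Tnfrsf8, the receptor of CD30 ligand, rose by 0.49 under TMT (adjusted p = 0.016) and did not pass under TET (0.10, adjusted p = 0.55). Tnfrsf10b, encoding a death receptor of TRAIL, fell by 0.63 under TMT (adjusted p = 0.0051) and did not pass under TET (−0.27, adjusted p = 0.12).

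The counts for the other ligands and receptors and for the lists that follow stand beside 27.8% of all genes called under TMT (14.3% higher, 13.4% lower) and 50.8% under TET (27.4% higher, 23.4% lower), and no list was tested as a set. Genes with at least the median mean signal were called more often, as given above. Of 13 adaptors and ubiquitin ligases measured, 3 rose and 4 fell under TMT (median −0.03), and 2 rose and 8 fell under TET (median −0.50). Birc2, encoding the ubiquitin ligase cIAP1 of the receptor complex, fell 2.16-fold under TMT (−1.11, adjusted p = 1.9e-04) and 5.18-fold under TET (−2.37, adjusted p = 5.6e-07). Birc3, encoding its paralogue cIAP2, fell under TMT (−0.51, adjusted p = 0.0030) and TET (−1.33, adjusted p = 2.8e-06). Xiap, encoding a caspase inhibitor, also fell under both (−0.74 and −0.9998, adjusted p = 0.0013 and 1.0e-04). Fadd, encoding the adaptor of the death receptors, rose by 0.61 under TMT (adjusted p = 6.3e-04) and 0.98 under TET (adjusted p = 1.5e-05). Of 12 kinases and kinase regulators, 4 rose and 5 fell under TMT (median −0.07), and 1 rose and 6 fell under TET (median −0.35). Map3k5, encoding the stress kinase ASK1, fell under TMT (−1.86, adjusted p = 7.8e-05) and TET (−2.39, adjusted p = 8.2e-06). Map3k8, encoding the kinase TPL2 that links these receptors to ERK, fell by 1.40 under TMT (adjusted p = 1.5e-05) and did not pass under TET (−0.26, adjusted p = 0.096). Map3k14, encoding the NF-κB inducing kinase NIK, rose by 0.80 under TMT (adjusted p = 1.7e-04) and by 0.29 under TET (adjusted p = 0.032). Tab2 and Map2k4, encoding a TAK1-binding adaptor and a kinase of the JNK pathway, fell under TMT (−0.53 and −0.73) and TET (−0.54 and −0.57).

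In the death branch 5 genes were measured, and 3 rose and 1 fell in each comparison with saline. Ripk3 (0.86 under TMT, 0.42 under TET), Mlkl (0.62 and 0.61) and Bid (0.69 and 0.75) rose. The first 2 encode the kinase and the pore-forming effector of necroptosis, and Bid a caspase-8 substrate. Cflar, encoding the caspase-8 inhibitor c-FLIP, fell as well (−0.49 and −0.60). The adjusted p-values of these 8 calls ran from 8.4e-05 to 0.030. Of 8 inhibitors of receptor signalling, 1 rose and 2 fell under TMT, and 4 rose and 4 fell under TET. Tnfaip3, encoding the ubiquitin editor A20, fell under both (−0.84 and −0.93, adjusted p = 1.5e-04 and 4.5e-05). Otud7b, encoding the deubiquitinase Cezanne, fell by 0.98 under TMT (adjusted p = 5.6e-04) and rose by 0.85 under TET (adjusted p = 8.5e-04). Tax1bp1, encoding an adaptor of A20, rose under both (0.65 and 0.32, adjusted p = 9.6e-04 and 0.028). Spata2, encoding the partner of the deubiquitinase CYLD, rose under TET (1.05, adjusted p = 2.8e-05) without a call under TMT (0.10, adjusted p = 0.60), and Tnip2, encoding an A20-binding protein, fell under TET (−0.97, adjusted p = 9.4e-05; TMT −0.36, adjusted p = 0.0503). The TMT count of 3 inhibitors was 5 without TET replicate 1 or TET replicate 2.

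**Figure D4:**
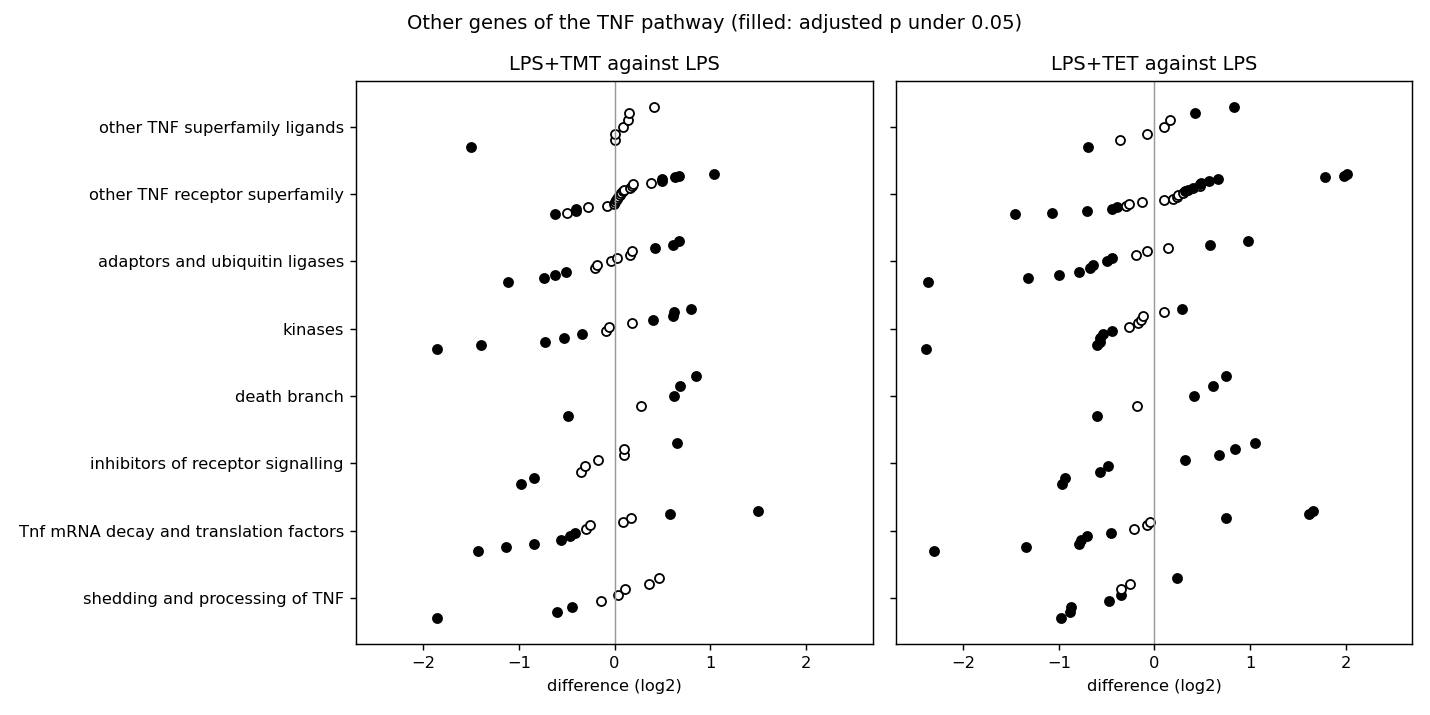
Log2 differences from saline under TMT (left) and TET (right) for the other measured genes of the TNF pathway, 1 point per gene, sorted within each list, filled where the adjusted p was under 0.05. Of 13 adaptors and ubiquitin ligases, 8 had filled points left of 0 under TET and 4 under TMT. Among all genes 23.4% were called lower under TET and 13.4% under TMT.

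Factors acting on the Tnf message and on the TNF protein are described last. Of 12 mRNA decay and translation factors, 2 rose and 6 fell under TMT (median −0.36), and 3 rose and 6 fell under TET (median −0.33). Zfp36l1, encoding a protein that promotes decay of AU-rich mRNAs, rose 2.84-fold under TMT (1.51, adjusted p = 8.4e-06) and 3.17-fold under TET (1.66, adjusted p = 2.3e-06). Its relative Zfp36l2 rose by 0.59 under TMT (adjusted p = 0.0157) and by 1.62 under TET (adjusted p = 1.4e-05). Their relative Zfp36 went the other way, falling by 0.56 under TMT (adjusted p = 0.0024) and by 0.45 under TET (adjusted p = 0.0049). Zc3h12a fell under both as well (−0.47 and −0.79, adjusted p = 0.0059 and 1.3e-04). Mapkapk2 had the lowest difference of the list under TMT (−1.43, adjusted p = 0.0084) and under TET (−2.31, adjusted p = 2.7e-04). Its arrays were spread (SD 0.64 under TMT and 0.60 under TET). Zfp36, Zc3h12a and Mapkapk2 were named after their values were seen. The counts and medians above pool the 12 factors whatever their action on the message. Rc3h1, encoding the RNA-binding protein Roquin, fell under both (−1.14 and −0.71, adjusted p = 4.8e-06 and 6.7e-05). Its relative Rc3h2 fell under TMT (−0.84, adjusted p = 2.9e-04) and rose under TET (0.75, adjusted p = 3.9e-04). Of 8 shedding and processing genes, 0 rose and 3 fell under TMT, and 1 rose and 5 fell under TET. Without TMT replicate 2 the TMT count was 5. Rhbdf1 and Rhbdf2, encoding the iRhom partners of the TNF-cleaving protease, fell under TMT (−1.85 and −0.60) and under TET (−0.98 and −0.87; adjusted p = 1.4e-06, 0.0045, 5.4e-05 and 2.6e-04). Sppl2a, encoding an intramembrane protease that cleaves the TNF stub, fell under TET (−0.88, adjusted p = 9.1e-05) without a call under TMT (0.03, adjusted p = 0.89). Timp3, encoding an inhibitor of the protease, fell under TMT (−0.44, adjusted p = 0.0103) and did not pass under TET (−0.25, adjusted p = 0.073). Adam17, encoding that protease and named after its values were seen, did not pass under TMT (−0.14, adjusted p = 0.25) and fell by 0.35 under TET (adjusted p = 0.0049).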

How the data were processed

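Total RNA (50 ng) was amplified and biotin-labelled with Nugen kits and hybridised to the arrays, per the labels' protocols. The deposited table holds log2 values made by the authors with RMA and affy (versions not given), per the submitters' processing notes. The base of the logarithm was taken from the values (2.05 to 14.8), and whether all arrays were normalized together is not stated. No further normalization was applied.

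Of 45037 probe sets, the platform annotation named 1 gene for 34945, several for 932 and none for 9160. Each of 18193 genes took its brightest probe set. With limma 3.58.1 in R 4.3.3, a model of group means was fitted over the 9 arrays together (residual degrees of freedom 6, prior 3.99). Tests were two-sided, with Benjamini-Hochberg adjustment across all genes per comparison. Other probe sets of members were tested in a second fit over the 34945 probe sets. The script was tested on simulated data.

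Beside the members, 16 lists of pathway genes and cell markers held 151 genes, 133 of them measured. Members and lists were chosen with earlier results of these data known. The pathway genes named are, beside stated exceptions and their values in the other comparison, up to 3 per list and comparison with the smallest adjusted p among those called.

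Alternatives were leaving out each array, bright genes alone, repeated quantile normalization, median centring, the mean over probe sets, leaving out probe sets marked x, s or a, array weights, trended robust moderation, fitting 6 arrays, the replicate block and each other probe set of a member. Replicate numbers are shared by the groups, and the deviations of same-numbered arrays correlated at 0.161, 0.308 and 0.0201 between TMT and saline and at −0.148 to 0.145 in the other comparisons. Not every pair exceeded 0.1 in any comparison, so no block was used.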

Additional observations from a re-analysis of the deposited data

How the results depend on the processing

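Over 30 results (10 members in 3 comparisons), 17 kept their direction and their side of the threshold under each alternative that could be run. Leaving out 1 array gave 3 to 5 members called under TMT, where 5 were called with all arrays. Over all genes these fits called 3971 to 5522. Array weights called 8756 genes under TMT against 5049. With bright genes alone 9097 genes were tested in place of 18193, and a larger share was called. The counts were 4628 under TMT, 6066 under TET and 6270 for TET against TMT, where all genes gave 5049, 9247 and 9425. Under TET 2204 bright genes were higher and 3862 lower, where 4982 were higher and 4265 lower over all genes. Sign changes touched Tnfsf10, Tnfsf13b and Cd40. For Tnfsf10, leaving out 1 array gave −0.029 to 0.15 under TMT, −0.17 to 0.062 under TET and −0.21 to 0.022 for TET against TMT. Repeated quantile normalization gave 0.10 and 0.0044 in the last 2. Its mean over probe sets was −0.40 under TMT (adjusted p = 0.0044), −1.58 under TET (adjusted p = 1.6e-07) and −1.18 for TET against TMT (adjusted p = 1.3e-06). Its other probe sets gave −0.42 and −0.81 under TMT, and −2.16 and −2.55 under TET. For Tnfsf13b under TMT, leaving out 1 array gave −0.11 to 0.13 and array weights 0.011, and 1 dim probe set gave −0.24 under TET and −0.11 for TET against TMT. For Cd40 under TET, leaving out 1 array gave −0.024 to 0.0033. The cause of these changes was not tested.

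The replicate block is a fit with the replicate number of the labels as a term. Under it 4 members were called under TMT (Tnfsf8 was lost, adjusted p = 0.068), 7 under TET and 7 for TET against TMT, while no other member's call changed. Over all 18193 genes the block fit called 4859, 8956 and 9119 in the same order. Of the 9 arrays, 0 lay closest to their own number in both other groups. The Cd40 difference under TMT passed with bright genes alone (adjusted p = 0.048), array weights (0.012), trended robust moderation (0.0052) and the mean over probe sets (4.9e-04). With 3 arrays per group the median SE of a difference was 0.121, and both extra Tnfsf13b probe sets were too dim to place above background.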
